A study of Mus musculus with 8 samples.

Results

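Messages of 10 genes of bone morphogenetic protein (BMP) and transforming growth factor β (TGF-β) signalling were followed cell by cell in mouse embryonic myocardium. The genes were the ligands Bmp2, Bmp4, Bmp5, Bmp7, Bmp10 and Tgfb2, the response genes Id1, Id2 and Id3, and the inhibitory Smad gene Smad6. They were chosen by name, with all probes that carried one of these names, and comprised 10 of the 24336 gene symbols and 12 of the 55681 probes on the array. The cells came from the heart tube per the labels, and from the ventricle per the study's methods, at embryonic day (E) 8.5, when embryos had 9 somites, and cDNA of 1 cell was amplified and hybridised to each one-colour 60-base array. Of the 8 arrays, 4 held cells of Mesp1+/+ Sox17flox/flox embryos (WT) and 4 held cells of Mesp1Cre/+ Sox17flox/flox embryos (KO), so that both genotypes carried the floxed alleles of Sox17, a transcription factor of endoderm and endothelium. Cells were freed with trypsin and their type was assigned by PCR of marker genes, per the study's methods. Mesp1-Cre acts in early mesoderm, from which the endocardium, the inner lining of the heart, and the myocardium both derive, and it is therefore not restricted to either layer. The comparison asked which messages differed in myocardial cells when Sox17 had been deleted in the mesoderm.

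BMP ligands bind complexes of type I and type II serine-threonine kinase receptors, which phosphorylate Smad1, Smad5 and Smad9, and these enter the nucleus with Smad4. TGF-β ligands act in the same way through Smad2 and Smad3. Id genes are among the best known direct targets of BMP signalling, and their products are helix-loop-helix proteins without a DNA-binding region that hold E proteins away from DNA. Smad6, another BMP target, encodes an inhibitor of the same pathway. In the developing heart Bmp10 is known for growth of the trabeculated ventricle, Bmp2 for the atrioventricular canal, Bmp4 for the outflow tract, and Tgfb2 for the cushions that form the valves.

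Since embryos and litters were not labelled, the 4 cells of a genotype counted as 1 sample, no test was made, and every SD below describes how cells varied, not how well the genotype mean is known. The WT arrays were on 1 slide and the KO arrays on another, and genotype cannot be told apart from slide. Signals are given after scaling of the arrays to a common 50th percentile of the probes detected on all 8. A gene was detected in a cell where the scanner software called its spot well above background, and log2 means were taken with signals below 50 set to 50 (5.64 on the log2 scale). A probe counted as present if every cell of WT, of KO or of both had it detected. The number of arrays limits the precision. Between 17.1% and 26.0% of probes were detected per cell, 22.8% ± 2.83 in WT and 19.7% ± 3.38 in KO (SD, n = 4). Of 10 myocardial markers, 10 were detected in every cell. Actn2 in WT cell 1 was so at 11.4, below the floor of 50, against 2196 to 15799 in the other cells. Of 13 endothelial and endocardial markers, 3 to 4 were detected per WT cell and 2 to 3 per KO cell. Their summed signals were 1125 to 1293 and 1048 to 1267. Every signal under 50, detected or not, counts as 50 in these sums, so they consist mostly of Kdr and the floor. Kdr was detected in all 8 cells at 443 to 693 and Plvap in all 8 at 18.0 to 99.3, and 8 of the 13, among them Cdh5, Tek and Nfatc1, in 0 cells. Erythroid, endoderm, proepicardial and neural crest lists each had 0 to 1 gene detected per cell. Of these, Wt1 of the proepicardial list read 474 in WT cell 2 and 473 in WT cell 3 and was detected in 0 KO cells. The other genes detected from these lists read at most 41.0, for Sox10 in KO cell 2. Sox17 and Mesp1 were detected in 0 of the 8 cells, so the deletion could not be checked on these arrays.

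Probe sequences are shown here for Id3 and, as shorter stretches, for Bmp2, Bmp4 and Id1. The Id3 probe, which has no mapped position in the files, has 1 forward reading frame without a stop codon.

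Id3: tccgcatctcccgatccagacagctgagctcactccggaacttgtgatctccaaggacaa

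The Bmp2 and Id1 probes and 1 of the 2 Bmp4 probes hold a polyadenylation hexamer, AATAAA or ATTAAA, the signal that precedes the poly(A) tail on which the cDNA was primed. These hexamers, 2 in Bmp4 and 1 in each of the others, are in capitals in the following 30-base stretches of the probes for Bmp2 (mm9, chromosome 2, 133388260 to 133388319, plus strand), Bmp4 (chromosome 14, 47003198 to 47003257, minus strand) and Id1 (chromosome 2, 152563083 to 152563142, plus strand).

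Bmp2: gccaaagtactaAATAAAatataatatttc
Bmp4: atATTAAAagaaAATAAAatgagtcattat
Id1: ttttttgttgttATTAAAcaaacactttag

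Promoters are shown for the Id genes that were covered by the RefSeq promoter table (GRCm38.p6). Capitals mark GGCGCC, a GC-rich palindrome found in BMP-responsive Id promoters, and CAGAC or its complement GTCTG, the Smad box. The windows hold the 250 bases before the start of transcription.

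Id2, chr12:25096093-25096342, minus strand: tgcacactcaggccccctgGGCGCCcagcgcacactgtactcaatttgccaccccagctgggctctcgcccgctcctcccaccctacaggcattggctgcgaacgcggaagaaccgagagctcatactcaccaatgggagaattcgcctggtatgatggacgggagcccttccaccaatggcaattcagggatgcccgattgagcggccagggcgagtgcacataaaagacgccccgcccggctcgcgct
Id3, chr4:136143572-136143821, plus strand: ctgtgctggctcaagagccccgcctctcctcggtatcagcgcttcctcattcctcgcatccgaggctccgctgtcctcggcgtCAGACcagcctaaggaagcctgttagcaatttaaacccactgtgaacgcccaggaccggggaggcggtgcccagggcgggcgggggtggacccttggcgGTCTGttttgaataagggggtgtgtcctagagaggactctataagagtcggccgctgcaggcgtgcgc

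The Id2 window held 1 GGCGCC, beginning 231 bases before the start, and the Id3 window held 2 Smad boxes, 167 and 68 bases before the start. GGCGCC occurred in 9.59% and the Smad box, read on both strands, in 42.2% of 32851 mouse promoter windows of the same length. The longer Smad palindrome GTCTAGAC, which contains neither box whole, occurred in 0.167% of the windows and in neither of these. Of the 7 members with a promoter in the table, GGCGCC was found in 1 and the Smad box in 3 (Bmp5, Tgfb2 and Id3). Id1, Bmp2 and Bmp7 are not shown.

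The Id genes were detected in 12 of 12 gene and cell combinations in WT and in 8 of 12 in KO. The 3 of them were the only members that were present, and all had a lower mean in KO, although the WT and KO cells overlapped for each. Id3 had a signal of 4121 in WT cell 1, 1129 in WT cell 2, 256 in WT cell 3 and 126 in WT cell 4. In KO it was detected in 1 cell, KO cell 3, at 806, and read 1.2, 3.0 and 4.8 in KO cells 1, 2 and 4. This cell exceeded WT cells 3 and 4. The log2 mean was 9.28 ± 2.25 in WT and 6.65 ± 2.0 in KO (SD, n = 4), a difference of -2.64 or 6.21-fold lower in KO, which is more than the SD of either genotype. This size was set in part by the floor, since 3 of the 4 KO cells were undetected and counted as 50, and it was -5.83 with no floor. Id3 was the 1 member of the 3 present that reached a 5-fold difference, the size rule of the study, and it was present through its WT cells alone. It was the 1 member detected in at least 3 more WT than KO cells, which rests on the same 3 undetected KO cells and is no separate observation. Over the array, with each gene counted by its probe of highest mean signal, a 5-fold lower mean in KO was found for 10.8% and a 5-fold higher mean for 2.69% of 3378 present genes. Detection in at least 3 more WT cells was found for 3.15% of the genes detected in any cell, and in at least 3 more KO cells, as for 0 of the 10 genes, for 0.479%. The difference was under 5-fold without WT cell 1 (3.31-fold), KO cell 1 (4.56-fold) or KO cell 4 (4.98-fold), and under quantile normalization it was -1.71.

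Id1, which shares the Id family's role as a brake on E proteins, was detected in all 4 WT cells at 521, 211, 544 and 32.9. In KO it read 53.9 in cell 1, 276 in cell 3 and 192 in cell 4, and was not detected in cell 2 at 2.9. The ranges overlapped, with WT cell 4 below 3 KO cells. The log2 mean was 7.87 ± 1.61 in WT and 6.77 ± 1.26 in KO, and the difference of -1.10 (2.14-fold lower) was smaller than the spread between cells of either genotype. It was -1.83 without WT cell 4, -0.68 without KO cell 2 and -1.97 with no floor. Id2 (mm9, chromosome 12, 25778904 to 25778963, minus strand) was the 1 member detected in all 8 cells, as were 9.12% of all genes. Its signals were 461, 223, 1833 and 449.9 in the WT cells and 653, 458, 541 and 64.1 in the KO cells. All but KO cell 4 lay within the WT range. The difference of -0.76 between 9.08 ± 1.27 and 8.32 ± 1.56 was smaller than the spread between cells of either genotype, and without KO cell 4 it was 0.02. Id4, the remaining Id gene, was detected in 0 of the 8 cells.

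**Figure D1:**
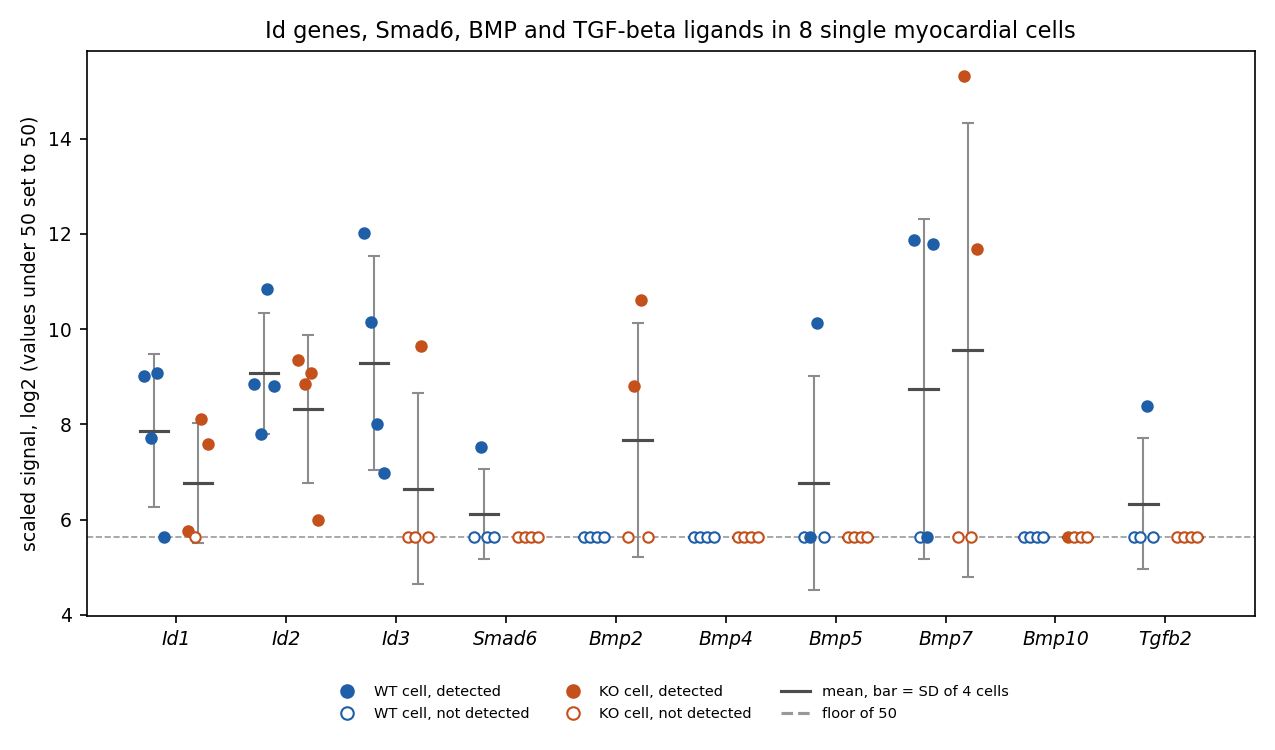
Scaled log2 signal of the 10 genes, values under 50 set to 50, with 1 point per cell (blue WT, orange KO, filled where detected), a line for the mean and a bar for the SD of 4 cells. The Id genes are filled in all 4 WT cells, whereas most other genes lie at the floor (dashed line) in most cells.

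Across the 8 cells, log2 signals of Id1 and Id3 had a Pearson r of 0.71 (Spearman rho 0.69), and 0.66 without the 2 cells farthest from the median of Id1, WT cell 4 and KO cell 2. Both were detected in 5 cells. The r was 0.13 between Id1 and Id2 (rho 0.44), and 0.24 without the same cells. It was 0.16 between Id2 and Id3 (rho 0.10), and -0.41 without the 2 cells farthest from the median of Id2, KO cell 4 and WT cell 3. These are descriptions over the same 8 arrays, which share their scaling and the floor. Among 3288 genes detected in at least 6 cells, those most like Id1 over the 8 cells were Emc6 (r = 0.98), Prrx2 (0.89) and Dab2ip (0.88), and those most like Id2 were Slc22a17 (0.84), Suclg1 (0.84) and Pcna (0.83). They were picked as the highest r of that many genes over 8 cells, which makes high values likely by selection alone. Whether these genes vary with Id1 or Id2 beyond that was not tested. The other 8 members were detected in too few cells for this search.

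Smad6 (mm9, chromosome 9, 63800980 to 63801039, minus strand) was detected in 1 of the 8 cells, WT cell 2, at 185. The other WT cells read 9.1, 1.5 and 1.6 and the KO cells 1.3 to 3.1. Its log2 mean of 6.12 ± 0.95 in WT stood over a KO mean at the floor, a difference of -0.47 that rests on that 1 cell.

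The ligands were detected in 6 of 24 gene and cell combinations in WT and 5 of 24 in KO. No ligand was detected in all cells of a genotype. Bmp7, known for acting redundantly with Bmp5 in the heart, had the widest range (mm9, chromosome 2, 172695203 to 172695262, minus strand). It was detected in WT cells 1, 3 and 4 at 3726, 11.7 and 3555, and in KO cells 2 and 4 at 40465 and 3264. It read 2.7 in WT cell 2, 5.6 in KO cell 1 and 2.6 in KO cell 3. In both genotypes some cells thus had a strong signal and others one at or near background, and the ranges overlapped. The log2 mean was 8.74 ± 3.57 in WT and 9.57 ± 4.77 in KO, and the difference of 0.83 was far inside the spread between cells. It turned to -1.10 without KO cell 2 and below 0 also without WT cell 2 or WT cell 3.

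Bmp2 was the 1 ligand whose difference exceeded the SD pooled over both genotypes, 1.74, though not the SD of the KO cells alone (mean higher in KO). It was detected in 0 WT cells, at 1.2 to 2.9, and in KO cells 2 and 3 at 446 and 1562. KO cells 1 and 4, at 3.3 and 2.2, were as low as the WT cells. The log2 mean in KO was 7.67 ± 2.46 against the floor in WT, a difference of 2.03, at least 4.09-fold higher, which was 1.08 without KO cell 3. Detection in KO cells only was seen for 13.9% and in WT cells only for 24.8% of the genes detected in any cell. Because Bmp2 was detected in 2 of 4 KO cells it was not present and did not enter the count by the size rule.

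Bmp5, a ligand of the Bmp7 subgroup (mm9, chromosome 9, 75746444 to 75746503, plus strand), was detected in WT cells 2 and 3 at 14.3 and 1122 and in 0 KO cells, which read 1.2 to 4.2. The difference of -1.12 (at least 2.18-fold lower) was 0 without WT cell 3. Tgfb2 was likewise detected in WT cell 3, at 336, by a probe at chromosome 1, 188447534 to 188447593, minus strand. Its other cells read 1.3 to 3.1, and the difference of -0.69 (1.61-fold lower, likewise not a bound) was again 0 without that cell. The other Tgfb2 probe, with 1 forward reading frame free of stop codons, was detected in 0 of the 8 cells at 1.3 to 3.3, so the probes for the gene disagreed in WT cell 3. Its sequence is shown because it is the probe that did not register the gene where its partner did.

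Tgfb2, other probe (mm9, chromosome 1, 188449333 to 188449392, minus strand): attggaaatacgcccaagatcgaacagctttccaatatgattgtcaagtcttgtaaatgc

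Bmp4 was detected in 0 of the 8 cells by either of its probes, which read 1.3 to 7.3. Bmp10 (mm9, chromosome 6, 87384427 to 87384486, plus strand) was called above background in KO cell 1 alone, at 8.2, below the floor of 50, and read 1.2 to 5.4 in the WT cells. No fold is given for either gene. An undetected spot says only that the gene was not measurable above background in the amplified cDNA of that cell.

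**Figure D2:**
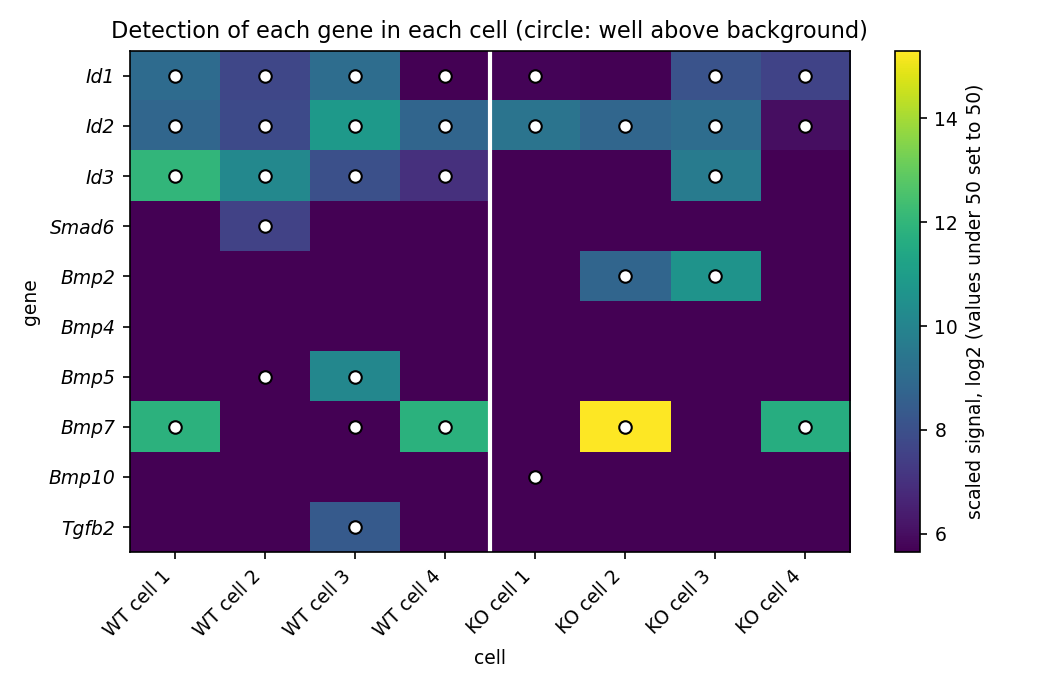
Each of the 10 genes (rows) in each of the 8 cells (columns), coloured by scaled log2 signal with values under 50 set to 50, and with a circle where the spot was detected. WT cells have circles for 4 to 6 genes and KO cells for 3 to 4, the Id genes fill the WT columns, and Bmp4 has none.

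In all, the 10 genes were detected in 19 of 40 gene and cell combinations in WT (47.5%) and 13 of 40 in KO (32.5%). The counts per cell were 4, 5, 6 and 4 in WT and 3, 3, 4 and 3 in KO, so that KO cell 3 equalled the lowest WT cells. The share of all probes detected was also lower on average in KO cells, as given above, and its part in this difference was not tested. Of the 10 genes, 9 were detected in at least 1 cell, against 49.8% of all gene symbols, 3 in WT only (Bmp5, Tgfb2 and Smad6), 2 in KO only (Bmp2 and Bmp10) and 4 in both. For 5 of them detection was in 1 or 2 cells. The mean was lower in KO for 6, higher for 2 and at the floor in both genotypes for 2, beside 44.5% lower and 32.5% higher of all genes detected in any cell. The median difference over the 9 detected genes was -0.69, beside 0.00 over all such genes, and it was -0.17 without WT cell 3. In 2 genes, Id3 and Bmp2, the difference exceeded the SD pooled over both genotypes, and how many genes of the array did so was not counted. For Bmp2 the WT SD was 0 by the floor, and the difference of 2.03 was below the KO SD of 2.46. For 0 of the 10 genes were the WT and KO cells without overlap, and over the array this was so for 1.62% of the genes detected in any cell. The median SD between cells was 0.74 in WT and 0.71 in KO over present probes, less than the SD of any of the 3 Id genes.

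**Figure D3:**
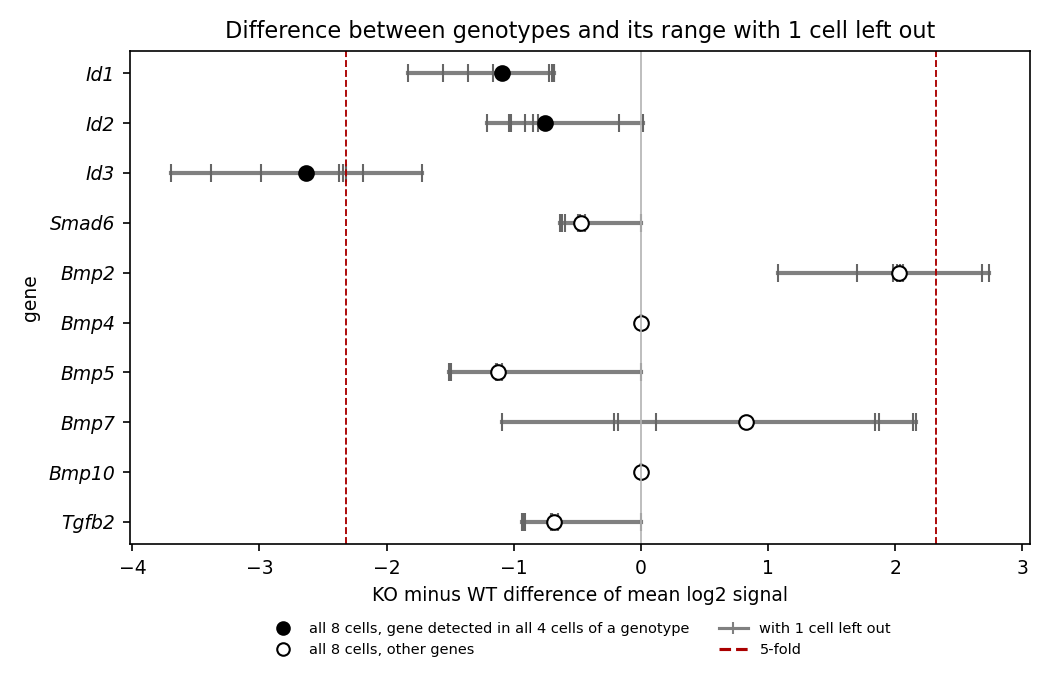
KO minus WT difference of the mean log2 signal for each of the 10 genes, as a point (filled for the 3 present genes), with ticks for the values when each cell was left out and a line over their range. Dashed lines mark 5-fold, which Id3 passes at -2.64 with a range of -3.70 to -1.73, while Bmp2 stands at 2.03 with a range of 1.08 to 2.74.

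The rest of the pathway was described with a list of 83 genes, all on the array, of which 44 were detected in at least 1 cell and 9 in all 8, beside 49.8% and 9.12% of all genes. Detection was in WT cells only for 16 of the 44 and in KO cells only for 2, beside 24.8% and 13.9% of all genes detected in any cell. For the 18 detected in at least 4 cells the difference was below 0 for 10, above 0 for 6 and 0 for 2, with a median of -0.10, beside a median of 0.00 over 5366 genes detected in as many cells, of which 46.9% were lower and 43.6% higher in KO. The number of list genes detected per cell was 19, 23, 30 and 27 in WT and 24, 15, 12 and 18 in KO.

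Of 22 further ligands 8 were detected in any cell. Nodal and Gdf3, both ligands of the early embryo, were detected in every cell at low signal. Nodal read 44.0, 87.1, 28.6 and 42.1 in WT and 16.0 to 34.9 in KO, below the floor in all but WT cell 2. Gdf3 read 23.1 to 101 in WT and 47.4 to 352 in KO, overlapping, with a difference of 1.09. Its other probe was detected in 0 cells at 1.1 to 2.9, and the difference with the mean of both was 0.55. Of 13 receptors 10 were detected, 4 in WT only and 1 in KO only. The type I receptor Acvrl1 was detected in all 8 cells, at 39.0 to 86.8 in WT and 66.9 to 83.5 in KO, a difference of 0.39. Of 7 Smads other than Smad6, 5 were detected in some cells and 0 in all.

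WT and KO cells did not overlap for 2 of the 44 detected list genes, both modulators, beside the 1.62% of genes given above. Furin, a protease that cleaves BMP and TGF-β precursors to their mature form, read 3422, 373, 888 and 278 in WT and 1.4, 6.2, 6.1 and 2.5 in KO. It was detected in all 4 WT cells and 0 KO cells by its 1 probe (mm9, chromosome 7, 87534082 to 87534141, minus strand). Its log2 mean was 9.55 ± 1.63 in WT against the floor in KO, at least 15.0-fold lower in KO. Furin was the 1 of the 13 present list genes past 5-fold, beside the 10.8% of all present genes that were lower by that size. Ltbp3, which binds latent TGF-β in the matrix, was detected in all 8 cells at 26.6 to 57.9 in WT and 122 to 278 in KO. The log2 means were 5.70 ± 0.10 and 7.36 ± 0.54, a difference of 1.66 (3.16-fold higher), and part of the small WT spread is set by the floor. Another Ltbp3 probe was detected in 0 cells at 1.3 to 3.1, and with the mean of both probes the difference was 0.83.

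The remaining list genes detected in all 8 cells overlapped between genotypes. The procollagen protease Bmp1, which also cleaves the antagonist chordin, read 156 to 435 in WT and 359 to 515 in KO (difference 0.65). The difference was 1.66 with quantile normalization and 0.23 with the mean of its 3 probes. Nbl1, a secreted BMP antagonist, read 26.4 to 78.4 and 33.8 to 171 (0.31). Chrd, the gene of chordin itself, read 21.5 to 45.3 and lay under the floor in every cell. Of 10 targets other than the members, 3 were detected. Msx2, a BMP-responsive homeobox gene, read 16.4 to 31.1 in WT and 26.5 to 91.9 in KO (0.22), and Tagln, a smooth muscle gene responsive to TGF-β, read 342 to 4605 and 268 to 7155 (-0.16).

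**Figure D4:**
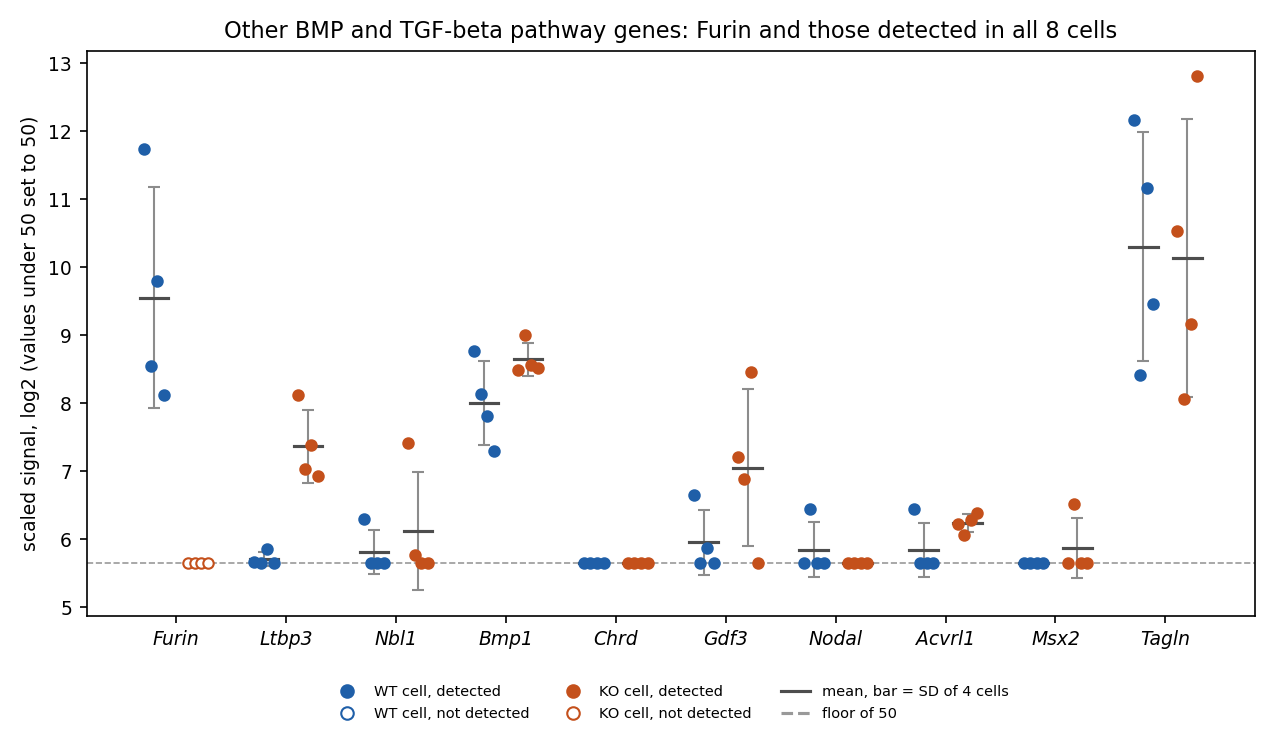
Scaled log2 signal per cell, values under 50 set to 50 (dashed line), of Furin and the 9 pathway genes detected in all 8 cells, with a line for the mean and a bar for the SD of 4 cells. WT (blue) and KO (orange) points stand apart for Furin, higher in WT, and for Ltbp3, higher in KO.

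**Figure D5:**
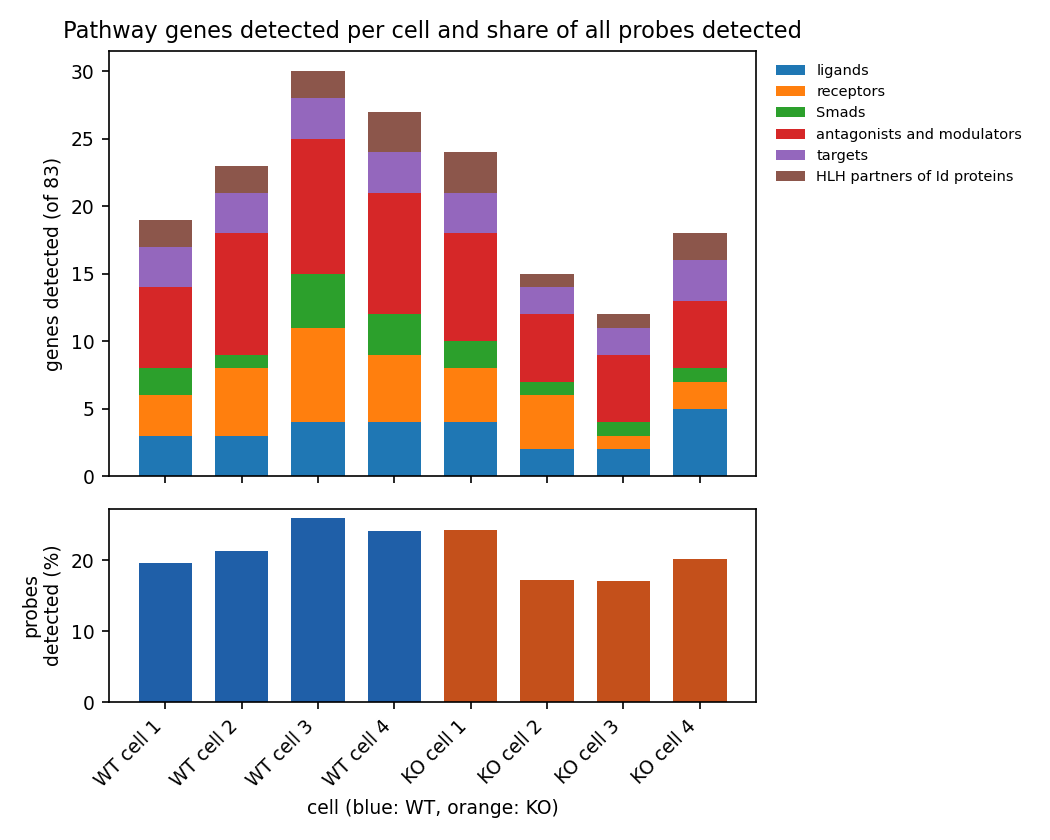
Upper bars give the number of the 83 pathway genes detected in each cell, stacked by class, and lower bars the percent of all probes detected. The upper counts are 19 to 30 for WT and 12 to 24 for KO, and KO cell 1, the highest of KO, also has the highest share of probes of the KO cells, 24.3%.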

How the data were processed

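Each Agilent one-colour array held amplified cDNA of 1 cell. The deposited values were intensity values on a linear scale, the processed signal of Feature Extraction 12.0.2.2, which the software had corrected for background, together with other quality flags deposited per spot. Per the study's methods, the authors then set levels under 50 to 50, scaled each chip on its 50th percentile and each gene on its median, and subtracted gene lists in GeneSpring GX. The gene scaling and the subtraction were left aside.

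Control spots and outlier spots (146 to 220 per array) were left out, and 0 spots were saturated. Log2 signals were averaged per probe, shifted by -0.76 to 0.68 to align the 50th percentile of the 5301 probes detected on all 8 arrays, and floored at 50. A gene with several probes was represented by that of highest mean signal. Differences are KO minus WT means of log2 values, described by the study's 5-fold rule (2.32 on the log2 scale) with no test. A fold against undetected cells is a bound against the floor of 50 only where every cell of the other genotype was detected above it, as for Furin. Text names were the 10 genes, list genes detected in all 8 cells or past 5-fold, and the 3 genes most like each member detected in at least 6 cells. Members and lists were chosen with earlier results of these data known. Replicate numbers of the labels name cells only. The script was tested on simulated data. Alternatives were quantile normalization, normexp (limma 3.58.1, R 4.3.3), other percentiles, floors and folds, and leaving out each cell. Python 3.11.15 was used with numpy 2.4.6 and pandas 2.3.3. Probe positions are those of the files (mm9) and promoters are from RefSeq (GRCm38.p6).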

Additional observations from a re-analysis of the deposited data

Results flagged for a closer look

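In 12 of 40 genotype groups, over the 10 genes and the 10 named pathway genes, a cell stood apart from the other 3 of its genotype, by a gap to its nearest neighbour that, as a share of the group's range, exceeded Dixon's critical value for 4 samples. Gaps were taken on log2 values with signals under 50 set to 50. In 13 groups all cells were at the floor, so they could not be flagged. Chance gives about 1 in 20 groups for data without a floor, so that rate is no yardstick here. A group in which 3 cells lie at the floor and 1 above it is picked out by construction. This was so for Bmp5, Tgfb2, Smad6, Nodal, Acvrl1 and Nbl1 in WT and for Id3 and Msx2 in KO. Of the 12, 5 belong to the BMP and TGF-β ligands, Id genes and Smad6, given here as scaled signals. Bmp5 read 1121.6 in WT cell 3 against 1.6 to 14.3 in the other WT cells, and Tgfb2 read 336.3 in the same cell against 1.6 to 2.3. Smad6 read 185.4 in WT cell 2 against 1.5 to 9.1. Id3 read 805.5 in KO cell 3 against 1.2 to 4.8, and Id2 read 64.1 in KO cell 4 against 458.2 to 653.4, the 1 such member group in which the cell apart was the low one.

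The other 7 belong to pathway genes. In WT, Nodal read 87.1 in cell 2 against 28.6 to 44.0, and Acvrl1 86.8 in cell 1 against 39.0 to 43.5. Nbl1 read 78.4 in WT cell 1 against 26.4 to 33.9, and Ltbp3 57.9 in WT cell 3 against 26.6 to 50.7. In KO, Nbl1 read 171.1 in cell 1 against 33.8 to 54.4, Bmp1 514.9 in cell 2 against 359.4 to 376.1, and Msx2 91.9 in cell 2 against 26.5 to 43.4.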

How the results depend on the processing

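The number of genes of the 10 at least 5-fold lower in KO, 1 by the reported rule, was 0 with quantile normalization, 0 with normexp then quantile normalization, 0 with a 10-fold rule and 2 with a 2-fold rule (Id1 and Id3), and 0 to 1 when each cell was left out (0 without WT cell 1, KO cell 1 or KO cell 4). The number at least 5-fold higher was 0 throughout. The median of the pathway list, -0.10, was -0.41 with no floor, 0.31 over the genes detected in all 8 cells, and -0.20 (without KO cell 4) to 0.063 (without WT cell 3) when each cell was left out. Detections, 19 in WT and 13 in KO, were 25 and 22 by the positive and significant flag and 16 and 12 by a signal above 50. They were 13 to 15 in WT and 9 to 10 in KO with a cell of that genotype left out. The Id3 difference ran from -5.83 with no floor to -1.71 with quantile normalization. The median difference over probes detected in every cell was 0.15, and 0.00 with the percentile over all probes, 0.05 with the 75th percentile, 0.32 with quantile normalization and 0.46 with normexp. Relative to it, Id3 was -2.79, and -2.93, -2.85, -2.03 and -2.65. Furin ran from -7.80 with no floor to -3.13 with quantile normalization. Of 160 values recomputed for the 10 genes, 153 moved by no more than the spread between cells, which was wide, and 7 by more. Bmp4 and Bmp10 lay at the floor with a spread of 0, so their values could not move in most settings. Of the 7, 2 are from Bmp4 and 2 from Bmp10. The sign turned for Bmp7 without WT cell 2, WT cell 3 or KO cell 2 and with medians of cells, and for Id2 without KO cell 4 and with medians of cells. No paired analysis was possible because replicate numbers were all that linked WT to KO cells and nothing here was tested. Signal over background limits what can be said of Bmp2, Bmp5, Bmp10, Tgfb2 and Smad6, each detected in 1 or 2 cells, and of Bmp4, detected in 0. Where a value changed, the cause was not tested.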

Other observations

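The Id proteins' partners and the Smads that carry the signal were also detected in some cells and not in others; these genes were chosen after their values were seen, and all signals are scaled. Hand1, a cardiac helix-loop-helix factor, read 1623 in WT cell 4, 12380 in KO cell 1 and 486 in KO cell 2, a difference of 1.55. Hand2 read 28.3 in WT cell 4, 11657 in KO cell 1 and 983 in KO cell 4, a difference of 3.04 (8.23-fold higher in KO). That difference was below the KO SD of 3.80 and rests on these 2 KO cells, with every WT cell at the floor. WT and KO cells overlapped for both genes. Tcf3, which encodes an E protein, was detected in all 4 WT cells at 543 to 1570 and in KO cells 1, 3 and 4 at 1475, 123 and 705, a difference of -1.67, while its other probe read 137.9 and 34.7 in WT cell 3 and KO cell 3 and 1.3 to 6.3 elsewhere. KO cell 2, in which it was not detected at 2.9, is also the cell without Id1. The share of all probes detected in that cell was 17.2%, near the lowest, 17.1% in KO cell 3. Over the 8 cells the Pearson r between Id1 and Tcf3 was 0.27, and -0.26 without WT cell 4 and KO cell 2.

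Smad4, with which the other Smads enter the nucleus, was detected in WT cells 1, 3 and 4 at 3804, 1447 and 2152. In KO it read 766 in cell 1 and 5556 in cell 4, and the difference of -1.45 was inside the pooled SD of 3.07. Smad2 was detected in WT cells 1, 3 and 4 at 23.0, 205 and 170 and in KO cell 3 at 48.0. Smad5, a BMP Smad, was detected in WT cell 3 at 2614 and in KO cells 1 and 2 at 97.1 and 14794, while its other probe was detected in 0 cells at 1.1 to 3.0. Smad3, a TGF-β Smad, read 1741 in WT cell 3 and 450.2 in WT cell 4 and was detected in 0 KO cells, and its other probe in 0 of the 8 cells. Tgif1, a repressor of TGF-β targets, read 1078 and 717 in the same 2 WT cells and was detected in 0 KO cells. Acvr2b, a type II receptor, was detected in WT cell 2 at 1963 and WT cell 4 at 1695 and in 0 KO cells, at least 6.04-fold lower in KO by this probe. Another Acvr2b probe was detected in 0 of the 8 cells, at 1.9 and 1.5 in those WT cells. Tgfb3 was detected in KO cell 4 at 383.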
